A study of Mus musculus with 8 samples.

Results

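DNA replication and S-phase genes were examined in the mouse macrophage line RAW 264.7 across the 4 treatment groups of the study. The list of 47 genes was written by hand in 4 roles: 16 licensing and helicase genes, 20 polymerase and fork genes, 6 nucleotide supply genes and 5 regulators of the passage from G1 into S phase. The mouse genome arrays gave 1 probe set for each of 18193 genes, taken as the brightest probe set that carries only that gene's symbol. By this rule 46 of the 47 genes had a probe set, the exception being Chaf1a. Of these, 45 had a mean above 4.84 on the log2 scale, the mean of all probe sets, and were tested among 8908 genes. The remaining gene, Tyms, which encodes thymidylate synthase, lay below this level in every array, and another probe set that names Tyms together with a pseudogene was left out.

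Each group held 2 arrays, which the labels call biological replicates without saying whether they came from separate cultures, so any p-value reflects the scatter of these arrays alone, and that scatter may be technical. Control cells received the control treatment, with neither menthol nor LPS. M cells received menthol for 1 h, LPS cells received LPS at 100 ng/ml for 6 h, and LPS+M cells received menthol for 1 h and then the same LPS. The labels give no dose of menthol and no harvest time for control and M, so time in culture may differ between groups and cannot be told apart from treatment there. All groups came from 1 established cell line that was kept dividing. All 9 macrophage markers lay between 9.62 and 15.6 on the log2 scale in every array, while no marker of T cells, B cells, fibroblasts, epithelium or endothelium exceeded 4.04. Replicate arrays correlated at 0.9988 to 0.9994 over probe sets, which are not independent replicates.

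Replication begins at origins, where the origin recognition complex (Orc1, Orc6) together with Cdc6 and Cdt1 loads the helicase Mcm2 to Mcm7 during G1. Mcm10, Cdc45 and the GINS proteins (Gins1 to Gins4) then turn the loaded helicase into a moving fork. DNA polymerases alpha, delta and epsilon copy the strands behind it, the clamp Pcna and its loader Rfc hold them on DNA, and ribonucleotide reductase (Rrm1, Rrm2) supplies deoxynucleotides. Cyclin E (Ccne1, Ccne2) and the E2F transcription factors drive entry into S phase, and many genes of the list are known E2F targets. Array RNA came from whole cultures, so fewer cells in S phase and less of a transcript in each cell cannot be told apart.

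The promoters of 4 genes that were lower when menthol preceded LPS are shown, because they hold the letters of an E2F consensus before the transcript start. Of the 9 genes lower in that comparison, Ung, Rrm2 and Ccne1 held no such letters, and Ccne2 and Mcm4 had no promoter sequence to search. Other genes with these letters before the start, such as Gins3 and Pola1, were not called in it. Nor were Cdt1 and E2f2, which hold the letters after the start. The stretch of Cdc6 lies at chr11:98907957-98908076 on the plus strand, that of Dtl at chr1:191575545-191575664 on the minus strand, that of Orc1 at chr4:108579334-108579453 on the plus strand and that of Uhrf1 at chr17:56304072-56304191 on the plus strand. The stretches of 120 bases are the RefSeq sequence of build GRCm38.p6, a reference strain and not the RAW 264.7 genome, written 5′ to 3′ on the gene's strand, with the consensus letters in capitals.
Cdc6: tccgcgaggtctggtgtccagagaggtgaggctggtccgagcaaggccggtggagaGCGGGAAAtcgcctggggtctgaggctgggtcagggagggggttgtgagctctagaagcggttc
Dtl: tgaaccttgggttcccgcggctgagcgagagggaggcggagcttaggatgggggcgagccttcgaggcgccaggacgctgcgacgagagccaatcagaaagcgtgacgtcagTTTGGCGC
Orc1: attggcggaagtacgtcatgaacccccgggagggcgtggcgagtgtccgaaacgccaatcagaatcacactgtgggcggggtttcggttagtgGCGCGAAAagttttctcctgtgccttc
Uhrf1: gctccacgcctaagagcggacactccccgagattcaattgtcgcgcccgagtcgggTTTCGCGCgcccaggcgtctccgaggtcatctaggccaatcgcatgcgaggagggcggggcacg

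The letters searched were TTTCCCGC, TTTCGCGC, TTTGCCGC and TTTGGCGC on both strands, in windows from 250 bases before to 50 bases after each RefSeq transcript start. Matches could overlap one another, as they do in Mcm5 and Mcm6. Of all 32851 promoter windows, 744 (2.26%) held at least 1 match. Of the 47 genes, 39 had a window, and 16 of these genes (41.0%) held a match, compared to 704 of 27025 genes (2.6%) in the whole reference table. Licensing genes had a match in 8 of 12, polymerase and fork genes in 6 of 17, nucleotide supply genes in 0 of 6, and G1/S regulators in 2 of 4. Counted from the transcript start in bases, with negative numbers before it, the match begins at -138 in Cdc6, -185 in Uhrf1, -27 in Orc1 and -8 in Dtl. Genes without a window in the table were Ccne2, Gins1, Gins2, Gins4, Mcm4, Pole, Prim2 and Rfc2. A match is a description of these letters and not evidence of binding, and a window without one says only that the letters are not in it.

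**Figure D1:**
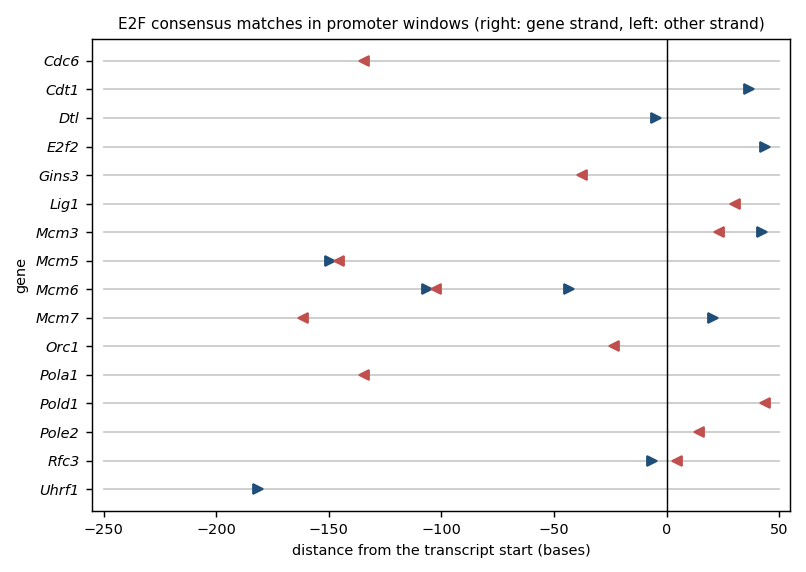
Position of each E2F consensus match in the promoter windows of the 16 genes that hold one, as distance from the transcript start in bases (x axis), with 1 line for each gene. Triangles pointing right mark a match on the gene's strand and triangles pointing left one on the other strand. The matches of Cdc6, Dtl, Orc1 and Uhrf1 lie before the start.

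Across the list, signal was highest in control cells and lowest in LPS+M cells. Control had the highest group mean in 43 of the 45 genes, the exceptions being Gins4 and E2f2. LPS+M had the lowest in 37, the exceptions being Cdt1, Cdc45, Gins4, Rfc1, Rfc4, Prim1, Prim2 and E2f2. M and LPS lay between them, with M below LPS in 24 genes and above it in 21. Relative to the mean of the control arrays, the median of the 45 genes was -0.51 and -0.44 on the log2 scale in the M arrays, -0.44 and -0.44 in the LPS arrays, and -0.69 and -0.72 in the LPS+M arrays. Both M arrays lay below both control arrays in 42 of 45 genes, compared to 29.9% of all genes tested. For LPS the count was 44, compared to 37.9% of all genes. For LPS+M it was 45, compared to 33.1% of all genes.

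**Figure D2:**
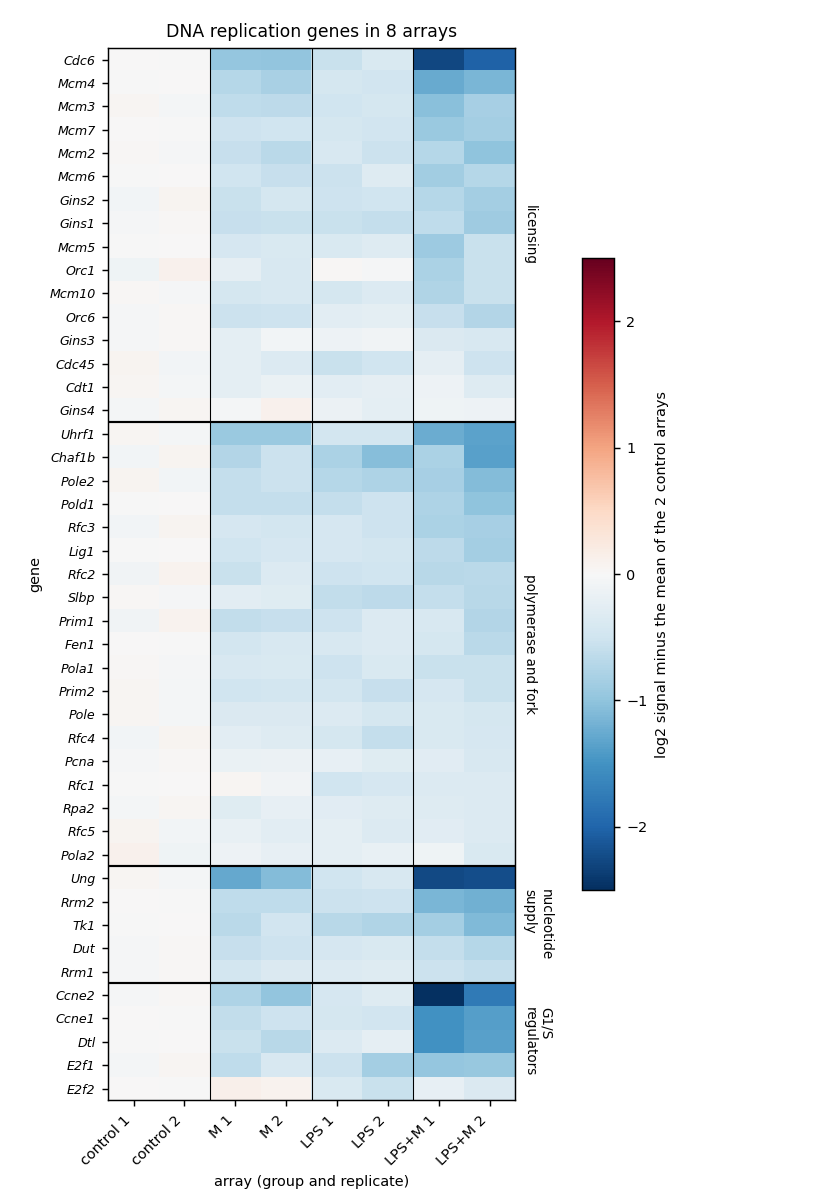
Log2 signal minus the mean of the 2 control arrays (colour, blue for lower) for the 45 tested genes (rows, by role) in the 8 arrays (columns). Blue deepens from M and LPS to LPS+M in most rows, with the deepest cells in Cdc6, Ung and Ccne2.

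M was compared to control to ask what menthol alone did to these transcripts. In M, 12 of the 45 genes were lower and none was higher, and each of the 4 roles had genes among the 12. A gene was called lower or higher at an adjusted p under 0.05 by limma over all 8908 genes together with a fold change of at least 1.5. By this rule 1.54% of all genes were lower and 3.01% higher. Without the fold minimum 35 of the 45 were lower, compared to 8.63% of all genes. The median log2 fold change of the list was -0.48, and that of all genes 0.02. The count of genes higher was 0 also at an unadjusted p under 0.05, where 20.7% of all genes were higher. Since the highest value was 0.11, below the fold minimum (0.585 on the log2 scale), a call of higher was not possible. The methods' t-test with the fold minimum called 9 lower, compared to 77 of all 8908 genes.

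The licensing genes that fell in M were Cdc6, Mcm4, Mcm3 and Mcm2, out of 16. The log2 signal of Cdc6 (probe set 1417019_a_at), the helicase loader, was 9.64 and 9.60 in control, 8.66 and 8.64 in M, 9.07 and 9.24 in LPS and 7.34 and 7.59 in LPS+M. Its 4 groups did not overlap, and M lay below LPS. Cdc6 fell by 0.97 ± 0.10 on the log2 scale, or 1.97-fold (adjusted p = 0.000677). Mcm4 (probe set 1416214_at), a helicase subunit, had 11.53 and 11.53 in control, 10.81 and 10.72 in M, 11.08 and 11.05 in LPS and 10.27 and 10.38 in LPS+M, and again the groups did not overlap. In M, Mcm4 fell by 0.76 ± 0.067 (adjusted p = 5e-04). Mcm3 (probe set 1420028_s_at) had 12.72 and 12.63 in control, 12.04 and 12.03 in M, 12.17 and 12.24 in LPS and 11.62 and 11.85 in LPS+M. Mcm2 (probe set 1448777_at) had 11.75 and 11.70 in control, 11.15 and 11.04 in M, 11.32 and 11.19 in LPS and 11.02 and 10.73 in LPS+M. Both helicase subunits were highest in control and lowest in LPS+M, with no overlap between groups. Mcm3 fell by 0.64 ± 0.084 (adjusted p = 0.0024) and Mcm2 fell by 0.63 ± 0.10 (adjusted p = 0.00514) in M. Among the 12 licensing genes that were not called, values ran from -0.57 for Gins1 to 0.031 for Gins4.

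Of 19 polymerase and fork genes tested, Uhrf1, Chaf1b, Pold1 and Prim1 fell in M. Uhrf1 (probe set 1415810_at), which brings the maintenance methyltransferase to newly copied DNA, had 12.85 and 12.76 in control, 11.87 and 11.88 in M, 12.35 and 12.35 in LPS and 11.56 and 11.47 in LPS+M. The 4 groups were fully separate, with M below LPS. Uhrf1 fell by 0.93 ± 0.064, or 1.90-fold (adjusted p = 0.000189). Pold1 (probe set 1456055_x_at), the catalytic subunit of polymerase delta, had 10.82 and 10.83 in control, 10.23 and 10.23 in M, 10.24 and 10.30 in LPS and 10.05 and 9.83 in LPS+M. M and LPS were nearly level in this gene, and both LPS+M arrays lay below them. Pold1 fell by 0.59 ± 0.082 (adjusted p = 0.00283) and Prim1, a primase subunit, fell by 0.59 ± 0.12 (adjusted p = 0.0109), both close to the fold minimum. Chaf1b, a chromatin assembly subunit, fell by 0.63 ± 0.18 (adjusted p = 0.041). The clamp Pcna had -0.15 ± 0.071, which was not called, and the clamp loader subunit Rfc1 had -0.020 ± 0.069.

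Ung and Rrm2 fell among the 5 nucleotide supply genes tested, and Ccne2 and Dtl among the 5 G1/S regulators. Ung (probe set 1425753_a_at), uracil-DNA glycosylase, which removes uracil from DNA, had 9.17 and 9.08 in control, 7.85 and 8.04 in M, 8.63 and 8.72 in LPS and 6.88 and 6.91 in LPS+M. Its groups did not overlap, and it held the largest fall of the list in M. Ung was placed in the nucleotide supply role, although it acts on DNA and does not itself supply nucleotides. Ung fell by 1.18 ± 0.080, or 2.27-fold (adjusted p = 0.000189). Rrm2 (probe set 1434437_x_at), the regulated subunit of ribonucleotide reductase, had 13.07 and 13.06 in control, 12.43 and 12.43 in M, 12.52 and 12.55 in LPS and 11.92 and 11.86 in LPS+M, with no overlap. Rrm2 fell by 0.64 ± 0.058 (adjusted p = 0.000568). Dtl (probe set 1434695_at), a ubiquitin ligase receptor that directs Cdt1 to degradation in S phase, had 9.83 and 9.85 in control, 9.29 and 9.15 in M, 9.49 and 9.62 in LPS and 8.32 and 8.47 in LPS+M. Ccne2 (probe set 1422535_at), cyclin E2, had 8.63 and 8.68 in control, 7.88 and 7.66 in M, 8.24 and 8.33 in LPS and 6.07 and 6.89 in LPS+M. Groups of both genes were separate, although the 2 LPS+M arrays of Ccne2 differed more from each other than those of any other group of this gene. In M, Dtl fell by 0.62 ± 0.083 (adjusted p = 0.00254) and Ccne2 fell by 0.88 ± 0.22 (adjusted p = 0.0271). E2f2 (probe set 1436434_at), an E2F transcription factor, lay at the other end of the range, with 8.96 and 8.96 in control, 9.08 and 9.06 in M, 8.57 and 8.41 in LPS and 8.77 and 8.61 in LPS+M. Both M arrays of E2f2 lay above control, by 0.11 ± 0.080, which was not called (adjusted p = 0.382).

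Leaving out 1 array left 9 to 12 of the 45 genes lower in M. Ccne2 and Chaf1b lost the call without either control array and without either M array, with values of -0.91, -0.86, -0.99 and -0.77 for Ccne2 and -0.71, -0.56, -0.54 and -0.73 for Chaf1b. Prim1 lost it without the second control array (-0.49) and without the first or the second M array (-0.57 and -0.61). Mcm2 (-0.58) and Dtl (-0.55) lost it without the second M array.

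LPS was compared to control to ask what LPS alone did. In LPS, 5 of the 45 genes were lower, Chaf1b, Pole2, Tk1, E2f1 and Slbp, and none was higher. By the same rule 2.96% of all genes were lower and 3.17% higher. With no fold minimum 38 of the 45 were lower, compared to 12.6% of all genes. The median log2 fold change was -0.45, and -0.03 over all genes. All 45 values lay below 0, compared to 5083 of all 8908 genes, so a count of 0 higher followed by any test. At an unadjusted p under 0.05, 14% of all genes were higher. The methods' t-test with the fold minimum called 3 lower, compared to 144 of all 8908 genes. None of the 16 licensing genes was called by limma, although 14 were lower at an unadjusted p under 0.05, compared to 20.7% of all genes. With the chosen probe sets and all arrays no licensing gene reached the fold minimum (0.585 on the log2 scale). The lowest value was -0.57, so 0 calls followed there by any test. Of their other probe sets above the filter, those past it belonged to Mcm3 (-0.79), Gins3 (-0.74) and Mcm7 (-0.60), and the rest fell short. With no fold minimum 11 of the 16 were lower, compared to 12.6% of all genes.

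Chaf1b (probe set 1423877_at) had 7.45 and 7.60 in control, 6.80 and 6.99 in M, 6.74 and 6.46 in LPS and 6.73 and 6.17 in LPS+M. LPS and LPS+M overlapped, and both lay below M. In LPS, Chaf1b fell by 0.93 ± 0.18, or 1.90-fold (adjusted p = 0.00909). Pole2 (probe set 1427094_at), the second subunit of polymerase epsilon, had 9.91 and 9.77 in control, 9.24 and 9.30 in M, 9.12 and 9.07 in LPS and 9.01 and 8.75 in LPS+M. Its groups did not overlap, and LPS lay below M. Pole2 fell by 0.75 ± 0.095 (adjusted p = 0.00133). Slbp (probe set 1460168_at), which binds the stem-loop of histone mRNAs, had 12.25 and 12.20 in control, 11.96 and 11.92 in M, 11.61 and 11.57 in LPS and 11.64 and 11.54 in LPS+M. LPS and LPS+M overlapped and lay below M. Slbp fell by 0.63 ± 0.064 (adjusted p = 0.000439).

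Tk1 (probe set 1416258_at), thymidine kinase, had 10.98 and 10.99 in control, 10.31 and 10.50 in M, 10.29 and 10.23 in LPS and 10.12 and 9.88 in LPS+M, with the LPS arrays just below those of M. Tk1 fell by 0.72 ± 0.10 (adjusted p = 0.0018). E2f1 (probe set 1417878_at), an activating E2F factor, had 8.25 and 8.33 in control, 7.65 and 7.89 in M, 7.76 and 7.45 in LPS and 7.32 and 7.35 in LPS+M. M and LPS overlapped here, and LPS+M lay below both. E2f1 fell by 0.69 ± 0.12 (adjusted p = 0.00489). At the other end, Orc1 (probe set 1422663_at), the largest origin recognition subunit, had 6.24 and 6.47 in control, 6.14 and 5.95 in M, 6.39 and 6.32 in LPS and 5.56 and 5.81 in LPS+M. Its LPS arrays lay within the range of control, while M and LPS+M lay below both. Without the first control array 8 genes were lower, the 5 named and Gins1, Rfc2 and Rfc4. Over single arrays left out the count was 4 to 8. Chaf1b lost its call without the second control array (-0.86) and without the second LPS array (-0.79), and E2f1 lost it without the second LPS array (-0.53).

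LPS+M was compared to LPS to ask what menthol did before LPS. In LPS+M, 9 of the 45 genes were lower and none was higher by limma. These were Ccne2, Dtl and Ccne1 among the G1/S regulators, Cdc6, Mcm4 and Orc1 among the licensing genes, Ung and Rrm2 among the nucleotide supply genes, and Uhrf1 among the fork genes. Of all genes 2.49% were lower and 4.22% higher. With no fold minimum 23 of the 45 were lower, compared to 11.4% of all genes. The median of the list was -0.26 and that of all genes 0.03. The highest value of the chosen probe sets, 0.20, lay below the fold minimum, so no gene could be called higher with them. The methods' t-test with the fold minimum called 7 lower, compared to 107 of all 8908 genes. At an unadjusted p under 0.05, 1 gene, E2f2, was higher, with 0.20 ± 0.080 (adjusted p = 0.104). At that unadjusted p 24.1% of all genes were higher.

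Ccne2, Ung and Cdc6 had the largest falls of the list. Ccne2 fell by 1.81 ± 0.22, or 3.50-fold (adjusted p = 0.00119). Ung fell by 1.78 ± 0.080, or 3.43-fold (adjusted p = 3.04e-05). Cdc6 fell by 1.69 ± 0.10, or 3.23-fold (adjusted p = 5.24e-05). All 3 genes had both LPS+M arrays below every other array. Ccne1 (probe set 1416492_at), cyclin E1, had 8.58 and 8.54 in control, 7.95 and 8.04 in M, 8.13 and 8.09 in LPS and 7.05 and 7.18 in LPS+M, where M and LPS were close and LPS+M was lowest. Ccne1 fell by 0.996 ± 0.070 (adjusted p = 0.000128) and Dtl fell by 1.16 ± 0.083 (adjusted p = 0.000129). Uhrf1 fell by 0.83 ± 0.064 and Mcm4 fell by 0.74 ± 0.067. Orc1 fell by 0.67 ± 0.11 and Rrm2 fell by 0.64 ± 0.058. Both LPS+M arrays of these 4 genes lay below both LPS arrays. Cdc6, Dtl, Orc1 and Uhrf1 are the genes whose promoter stretches are printed above.

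**Figure D3:**
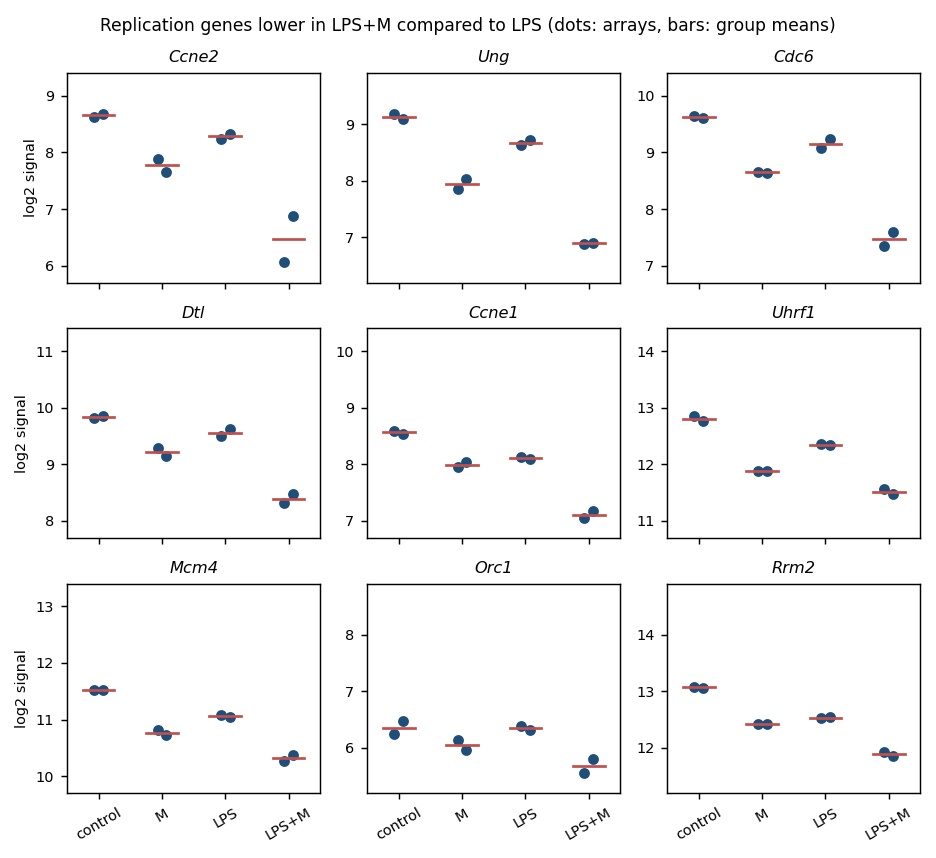
Log2 signal (y axis, the same span in each panel) of the 9 genes lower in LPS+M compared to LPS, in the 4 groups (x axis), with a dot for each array and a bar for the mean of the 2 arrays. LPS+M is the lowest group in every panel, and LPS lies level with control only in Orc1.

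Most polymerase and fork genes did not differ beyond the threshold between LPS+M and LPS. Of 19, only Uhrf1 was called by limma, which is 5.26%, compared to 2.49% of all genes. With no fold minimum 4 were lower, compared to 11.4% of all genes. The role's median was -0.11. For Pola1, the catalytic subunit of polymerase alpha, the value was -0.11 ± 0.066, for the flap endonuclease Fen1 -0.19 ± 0.082, and for Pcna -0.089 ± 0.071. The median was -0.37 for licensing genes, -0.26 for nucleotide supply genes and -0.996 for G1/S regulators. The highest values were 0.20 for E2f2 and 0.16 for Cdc45, neither called. Leaving out 1 array left 8 or 9 genes lower, and without the first LPS+M array Orc1 (-0.55) was lost.

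Menthol was compared once without LPS and once with it, on separate arrays. Of the 12 genes lower in M compared to control, 7 were also lower in LPS+M compared to LPS (58.3%), and these 7 were 77.8% of the 9. They were Ccne2, Cdc6, Dtl, Mcm4, Rrm2, Uhrf1 and Ung. Over all genes tested, 90 were lower in both, which is 65.7% of the 137 and 40.5% of the 222. The log2 fold changes of the 45 genes correlated with r = 0.792 between the 2 comparisons, compared to 0.784 over all 8908 genes, as a description over genes that share arrays and co-vary.

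The interaction, the difference made by menthol with LPS minus that without it, tested whether the change with menthol differed between the 2 settings. No gene of the list passed the limma test, by which 0.0337% of all genes were higher and 0.202% lower. At an unadjusted p under 0.05, 11 of the 45 were above 0 and 5 below 0, compared to 5.46% and 4.56% of all genes. With trended and robust eBayes 1 gene, Cdc6, was called lower. Without the second LPS+M array 2 genes, Cdc6 and Ccne2, were called lower. A value above 0 means that the change with menthol was less negative or more positive in LPS-treated cells, and 37 of the 45 lay above 0, compared to 51.7% of all genes. The median was 0.18, and 0.0055 over all genes. All 19 polymerase and fork genes were above 0, from 0.066 for Pcna to 0.50 for Prim2, a primase subunit. Of the 5 G1/S regulators, 3 lay below 0. The lowest values of the list were -0.92 ± 0.31 for Ccne2, -0.71 ± 0.13 for Cdc6, -0.60 ± 0.11 for Ung, -0.54 ± 0.12 for Dtl and -0.43 ± 0.10 for Ccne1. Their adjusted p values were 0.346, 0.124, 0.124, 0.155 and 0.184, so none of these differences passed the threshold.

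**Figure D4:**
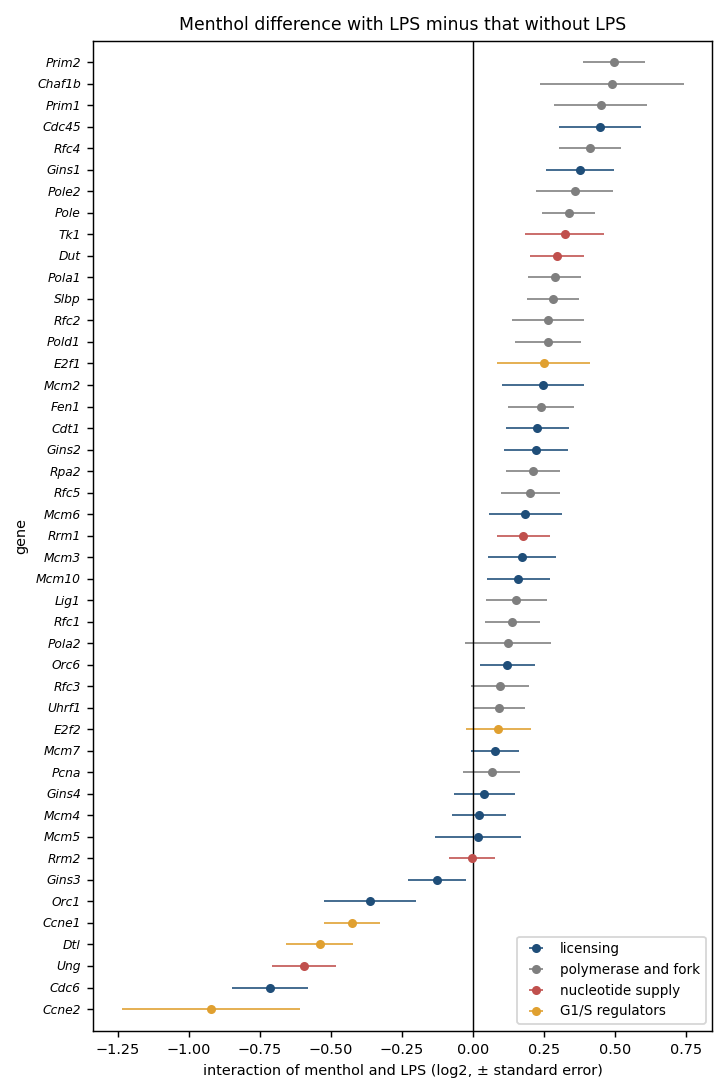
Interaction of menthol and LPS on the log2 scale (x axis) with its standard error for each of the 45 genes (y axis, ordered by value), coloured by role. The polymerase and fork genes lie above 0, and the 5 lowest points are Ccne2, Cdc6, Ung, Dtl and Ccne1. No gene passed the test.

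LPS+M was compared to M to ask what LPS did in cells that had received menthol. Of the 45 genes 5 were lower in LPS+M, Ccne2, Cdc6, Ung, Ccne1 and Dtl, and none was higher. Of all genes 1.77% were lower and 2.39% higher. With no fold minimum 17 were lower, compared to 7.69% of all genes. The median of the list was -0.28, and -0.03 over all genes. No gene was higher at an unadjusted p under 0.05, where 12.2% of all genes were. The highest value, 0.02, lay below the fold minimum, so no gene could be called higher. The methods' t-test with the fold minimum called 2 lower, compared to 72 of all 8908 genes. Ccne2 fell by 1.29 ± 0.22 (adjusted p = 0.00785), Cdc6 fell by 1.18 ± 0.10 (adjusted p = 0.000198) and Ung fell by 1.05 ± 0.080 (adjusted p = 0.00015). Ccne1 fell by 0.88 ± 0.070 and Dtl fell by 0.82 ± 0.083. Leaving out 1 array gave 4 to 6 genes, and Ccne2 (-1.18) was lost without the first M array.

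Of these 5 genes, 0 were among the 5 that were lower with LPS in cells without menthol. In cells without menthol LPS gave -0.37 ± 0.22 for Ccne2, -0.47 ± 0.10 for Cdc6, -0.45 ± 0.080 for Ung, -0.45 ± 0.070 for Ccne1 and -0.28 ± 0.083 for Dtl. After menthol it gave -0.44 ± 0.18 for Chaf1b, -0.39 ± 0.095 for Pole2, -0.40 ± 0.10 for Tk1, -0.44 ± 0.12 for E2f1 and -0.35 ± 0.064 for Slbp. Over all genes, 105 were lower in both comparisons, which is 39.8% of the 264 and 66.5% of the 158. The log2 fold changes correlated with r = 0.146 over the 45 genes and 0.824 over all genes tested, as a description. These 2 values cover unlike ranges and cannot be set against each other. In LPS compared to control the 45 genes ran from -0.93 to -7e-04 and all genes from -2.22 to 6.64. The test of the difference is the interaction given above, which none of these 10 genes passed by limma.

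LPS+M was compared to control to ask what both agents did together. In LPS+M, 28 of the 45 genes were lower by limma and 14 by the methods' t-test with the fold minimum. By that t-test 196 of all 8908 genes were lower. By limma 4.3% of all genes were lower and 5.53% higher, and 23% were higher at an unadjusted p under 0.05. With no fold minimum 42 were lower, compared to 16.7% of all genes. All 45 had a value below 0, compared to 4380 of all 8908 genes, so a count of 0 higher followed by any test. The median was -0.69, and 0.0044 over all genes. By role, the count was 12 of 16 licensing genes, 8 of 19 polymerase and fork genes, 4 of 5 nucleotide supply genes and 4 of 5 G1/S regulators.

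The falls were largest in Ung (4.70-fold), Ccne2 (4.52-fold) and Cdc6 (4.45-fold). Ung fell by 2.23 ± 0.080, Ccne2 fell by 2.17 ± 0.22 and Cdc6 fell by 2.16 ± 0.10 on the log2 scale. Ccne1 fell by 1.45 ± 0.070, Dtl fell by 1.44 ± 0.083 and Uhrf1 fell by 1.29 ± 0.064. Mcm4 fell by 1.20 ± 0.067 and Rrm2 fell by 1.17 ± 0.058. Among the helicase subunits, Mcm3, Mcm7, Mcm2, Mcm6 and Mcm5 were also lower, at -0.94, -0.89, -0.86, -0.79 and -0.74, so that all 6 subunits of the Mcm2 to Mcm7 helicase were lower. The GINS subunits Gins2 (-0.77) and Gins1 (-0.76) were lower, while Gins3 (-0.38) and Gins4 (-0.12) were not called. Of the clamp loader, Rfc3 and Rfc2 were called, and Rfc1, Rfc4 and Rfc5 were not. Lig1, the ligase that joins Okazaki fragments, fell by 0.75 ± 0.076. Dut, which clears dUTP, fell by 0.66 ± 0.067, and Rrm1, the large subunit of ribonucleotide reductase, had -0.57 ± 0.066, not called. Leaving out 1 array gave 27 to 30 genes. Orc1 was lost without the second control array (-0.56) or the first LPS+M array (-0.55), Mcm5 (-0.56) and Mcm10 (-0.56) without the first LPS+M array, and Orc6 (-0.58) without the second.

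LPS and M, the 2 single agents, were also compared to each other. By limma 1 gene of the 45, Ung, was higher in LPS than in M, by 0.73 ± 0.080 (adjusted p = 0.000354), and 0 were lower. Of all genes 4.59% were higher and 6.7% lower. At an unadjusted p under 0.05, 8 genes were higher and 5 lower, compared to 17.9% and 30.1% of all genes. The methods' t-test with the fold minimum called 1 higher, compared to 298 of all 8908 genes. With all arrays and the chosen probe sets as deposited, the lowest value was -0.58 for E2f2. It fell just short of the fold minimum, so none could be called lower. With no fold minimum Mcm4, Cdc6, Orc6, Uhrf1, Ung and Dtl were higher in LPS, and Gins4, Rfc1, Slbp and E2f2 were lower, compared to 14.4% of all genes higher and 24.3% lower. Without the first LPS array Cdc6 was called higher as well, and without that array or the second M array E2f2 was called lower. The median of the list was 0.02, and -0.06 over all genes.

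The roles can be set beside 30 mitosis and G2/M genes, a list of spindle, kinetochore and mitotic kinase genes, of which 29 were tested. In M compared to control the mitotic genes had a median of 0.03, with 0 called by limma in either direction and 7 higher at an unadjusted p under 0.05, compared to 20.7% of all genes. In LPS compared to control their median was -0.24, with 0 called and 23 lower at an unadjusted p under 0.05, compared to 20.7% of all genes. No mitotic gene reached the fold minimum in these 2 comparisons, with values from -0.13 to 0.54 in M and -0.57 to 0.086 in LPS. No test with that minimum could therefore call one. With no fold minimum 4 were higher in M, compared to 1165 of all 8908 genes. In LPS 15 were lower, compared to 12.6% of all genes. In LPS+M compared to LPS all 29 lay above 0, compared to 55% of all genes, with a median of 0.30. Of these, Cenpf, a kinetochore protein, rose by 0.60 ± 0.087 and Prc1, which bundles spindle microtubules, rose by 0.64 ± 0.062. These called genes were 6.9% of the list, compared to 4.22% of all genes called higher. With no fold minimum 18 were higher, compared to 1542 of all 8908 genes. At an unadjusted p under 0.05, 22 were higher, compared to 24.1% of all genes. Cenpf was lost without the first LPS array (0.54) or the second LPS+M array (0.49). In the same comparison the median of the 45 replication genes was -0.26. In LPS+M compared to control the mitotic genes had a median of 0.03. There 15 of the 29 lay above 0, compared to 4528 of all 8908 genes. Their values ran from -0.52 to 0.41, so none could be called with the fold minimum. Of the mitotic genes with a promoter window, 1 of 25 held an E2F consensus match.

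**Figure D5:**
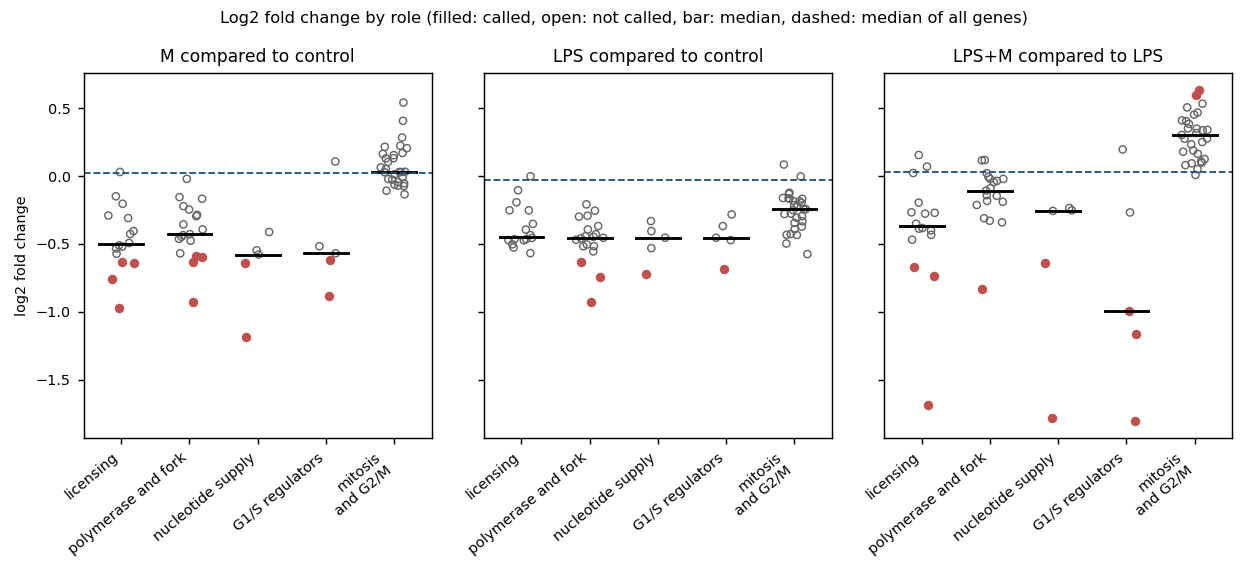
Log2 fold change (y axis) of the replication genes by role and of the mitosis and G2/M genes, for M and for LPS against control and for LPS+M against LPS. Filled points were called, open points were not, bars are medians and the dashed line is the median of all genes tested. Replication genes lie below the line in most cases, and in LPS+M compared to LPS the mitotic genes lie at a median of 0.30.

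Other genes of the same pathways were taken from hand-written lists. Of 15 other origin and helicase genes, Wdhd1, which links the helicase to polymerase alpha, had 7.78 and 8.16 in control, 7.004 and 7.06 in M, 7.26 and 7.30 in LPS and 5.99 and 5.82 in LPS+M. Its LPS+M arrays lay below all others, and it was lower in M (-0.94 ± 0.12), LPS (-0.69 ± 0.12) and LPS+M (-2.07 ± 0.12) compared to control, and in LPS+M compared to LPS (-1.38 ± 0.12). Its call in LPS was lost without the second control array (-0.50). Gmnn, the inhibitor of Cdt1, fell by 0.89 ± 0.056 in LPS compared to control. The other 14 of these genes were not called in M. In LPS+M compared to LPS Mtbp, which acts in origin firing, rose by 0.82 ± 0.081. Compared to control, 6.67% of the list fell in M, 13.3% in LPS and 20% in LPS+M. The shares of all genes were 1.54%, 2.96% and 4.3%. In LPS+M compared to LPS 6.67% fell and 6.67% rose, compared to 2.49% and 4.22% of all genes.

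Of 25 other polymerase and fork genes, 4 fell in M and 5 in LPS compared to control, and 2 fell in LPS+M compared to LPS. These were 16%, 20% and 8% of the list, compared to 1.54%, 2.96% and 2.49% of all genes. At an unadjusted p under 0.05, 1, 0 and 1 were higher, compared to 20.7%, 14% and 24.1% of all genes. The highest values were 0.20, 0.14 and 0.20, below the fold minimum, so none could be called higher. Dscc1, a subunit of an alternative clamp loader, fell by 1.01 ± 0.14 in M, fell by 0.98 ± 0.14 in LPS and fell by 0.71 ± 0.14 in LPS+M compared to LPS. Timeless, a fork protection protein, fell by 0.86 ± 0.092 in M and fell by 0.92 ± 0.092 in LPS. Atad5, which unloads the clamp, fell by 0.80 ± 0.11 in M and by 0.76 in LPS+M compared to LPS. Dnmt1, the maintenance methyltransferase, fell by 0.60 ± 0.076 in M. In LPS+M compared to LPS Dscc1 was lost without the second LPS array (-0.62) or the first LPS+M array (-0.49), and Dnmt1 in M was lost without the second control array (-0.57).

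Of 18 other nucleotide genes tested, Umps, which makes UMP, fell by 0.59 ± 0.094 in M, a call lost without the second control array (-0.48) or the first M array (-0.58). Umps was the only gene of this list called in M, 5.56% of the list, compared to 1.54% of all genes lower. In LPS compared to control none of the 18 reached the fold minimum, with values from -0.33 to 0.28, so none could be called. At an unadjusted p under 0.05, 2 were higher and 5 lower, compared to 14% and 20.7% of all genes. In LPS+M compared to LPS, Ppat, the first committed enzyme of purine synthesis, fell by 0.74 ± 0.076 and Dhodh, an enzyme of pyrimidine synthesis, fell by 0.59 ± 0.078, while Mthfd2, a mitochondrial folate enzyme, rose by 0.72 ± 0.11. In this comparison 11.1% of the list fell and 5.56% rose, compared to 2.49% and 4.22% of all genes. Dhodh was lost without the second LPS array (-0.55) or the first LPS+M array (-0.57).

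Of 32 other G1/S and checkpoint genes tested, 1 rose in M, 1 rose and 7 fell in LPS compared to control, and 2 rose and 1 fell in LPS+M compared to LPS. The share that rose in M was 3.12%, and 3.01% of all genes. In LPS 3.12% rose and 21.9% fell, compared to 3.17% and 2.96% of all genes, and in LPS+M compared to LPS 6.25% rose and 3.12% fell, compared to 4.22% and 2.49%. Cdkn1a, the cyclin-dependent kinase inhibitor p21, had 11.91 and 11.93 in control, 12.57 and 12.57 in M, 11.48 and 11.43 in LPS and 12.52 and 12.43 in LPS+M, so that both groups with menthol lay above both without it. Cdkn1a rose by 0.65 ± 0.061 in M compared to control (adjusted p = 0.000609) and rose by 1.02 ± 0.061 in LPS+M compared to LPS (adjusted p = 6.68e-05). Cdkn2c, another kinase inhibitor, fell by 1.27 ± 0.072 in LPS, and E2f8, a repressor of the E2F family, fell by 0.97 ± 0.12. Chek1, a checkpoint kinase, fell by 0.77 ± 0.088 in LPS. Ccnd2, cyclin D2, rose by 0.67 ± 0.13 in LPS+M compared to LPS, and was lost without the first LPS+M array (0.51).

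Further probe sets of the same genes were looked at as a check of the brightest one. Above the same level there were 33 more, for 25 of the 45 genes. Of these 31 lay below 0 in M, 33 in LPS and 33 in LPS+M compared to control, and 28 in LPS+M compared to LPS. For Uhrf1 the second probe set gave -1.003 in M compared to control and -1.06 in LPS+M compared to LPS, and for Ccne1 it gave -0.54 and -0.74. For Rfc1 another probe set gave -1.28 in LPS compared to control and 0.81 in LPS+M compared to LPS, where the chosen one gave -0.46 and 0.12. For Gins3 a second probe set just above the level gave 0.49 in LPS+M compared to LPS, against -0.28. For E2f2 a second probe set gave 0.22 in M compared to control, against 0.11.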

How the data were processed

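RNA of RAW 264.7 cells from 4 groups of 2 was amplified, labelled and hybridised to 8 Affymetrix mouse genome arrays. The authors deposited log2 signals, for which the submitters' processing notes name GCRMA (version 2.10.0) and R (version 2.6.1). This step subtracts background by probe GC content, equalises the arrays' distributions and summarises each probe set, so a change shared by most genes would not be seen. The values were used as deposited. The number of arrays limits the precision.

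Of 45101 probe sets, 34945 carry 1 symbol, 932 several, 9160 none and 64 are controls. For each gene the probe set of 1 symbol with the highest mean over the arrays was taken, and the filter was a mean above that over every probe set. The 4 group means were fitted to all 8 arrays with limma 3.58.1 (lmFit, eBayes) in R 4.3.3, with 4 residual and 3.778 prior degrees of freedom. Calls required at least a 1.5-fold change and a Benjamini-Hochberg adjusted p under 0.05 over 8908 genes. The 6 pairs of groups and the interaction were tested. No exact permutation test was made, since with 2 arrays a group its smallest two-sided p is 0.333. Standard errors of log2 fold changes follow the ± sign. The fit was tested on simulated data.

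The 47 genes, the other lists and the comparisons were chosen with earlier results of these data known. Every gene of the list may be named. Array values are given for the genes called in M or LPS compared to control or in LPS+M compared to LPS, at most 5 a role with the largest change, and for the ends of a range. Of other lists the called genes with the largest changes are named, at most 4 a list and comparison. Alternatives were other filters, other probe set choices, other scalings, the methods' t-test, trended and robust eBayes, other fold minimums, a fit of the compared groups alone, a block for the replicate number and leaving out each array. Promoter windows were read from a RefSeq table of build GRCm38.p6.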

Additional observations from a re-analysis of the deposited data

Results flagged for a closer look

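Myc, which encodes a transcription factor that promotes entry into the cell cycle and stands in the list of other G1/S and checkpoint genes, differed between cells with and without LPS in its change with menthol. Its log2 signal was 6.96 and 6.80 in control, 7.02 and 7.02 in M, 7.96 and 7.94 in LPS and 7.09 and 7.21 in LPS+M. The 2 LPS arrays lay above all others, and LPS+M lay slightly above control. The interaction of menthol and LPS was -0.95 ± 0.11 on the log2 scale (adjusted p = 0.0182). Menthol gave 0.15 ± 0.075 without LPS, which was not called, and -0.80 ± 0.075 with LPS (adjusted p = 0.000374). The interaction passed the threshold in 8 of 17 alternatives. It kept its direction in all 17, but several of them reused the same value and could not change it. It was lost without either array of control, LPS or M and without the first LPS+M array, with values from -1.03 to -0.87, and also with no filter on low values and with a fold of at least 2. The time from menthol to harvest may differ between M and LPS+M and cannot be told apart from these groups.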

How the results depend on the processing

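Over 137 called values of single genes, 2834 alternative values were computed, of which 2410 stayed past the threshold, 424 did not and 0 changed direction. Many alternatives changed only the filter, the test, the fold minimum or arrays of other groups, and reused the same fold change. Those could not change direction, so the count of 0 was in part fixed in advance. In M compared to control, Prim1 missed the threshold in 9 of 21 alternatives, Ccne2 in 8 of 21 and Chaf1b in 7 of 20. After Benjamini-Hochberg adjustment the methods' t-test called 0 of 8908 genes in every pair of groups, so 0 genes of the list were lower in M, LPS or LPS+M compared to control and in LPS+M compared to LPS or M, and 0 were higher in LPS compared to M. Without adjustment it called 3 lower in LPS and 14 in LPS+M compared to control, and 2 in LPS+M compared to M. With no fold minimum 35 genes were lower in M and 38 in LPS compared to control, 23 in LPS+M compared to LPS and 17 in LPS+M compared to M, and in LPS compared to M 6 were higher and 4 lower. With a fold of at least 2 the counts were 1 lower in M, 0 in LPS and 9 in LPS+M compared to control. At that fold 4 were lower in LPS+M compared to LPS and 3 in LPS+M compared to M. In LPS compared to M 0 were higher. The share of all genes at that fold was not counted. Probe sets without a suffix letter left 38 genes, with 3 lower in LPS+M compared to M, 0 higher in LPS compared to M and a median of -0.041 there. In LPS compared to M, E2f2 was lower (1 gene) with a mean over all probe sets of a gene and with arrays shifted to the same median. Trended and robust eBayes called 1 gene lower in the interaction. The cause of these differences was not tested, apart from the fold minimum, which acts by its construction. Leaving out 1 array gave 4 to 8 genes lower in LPS compared to control, 1 to 2 higher and 0 to 1 lower in LPS compared to M, and 0 to 2 lower in the interaction. A group left with 1 array is then assumed to vary like the others.

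Deviations of arrays with the same replicate number correlated between groups at r = -0.121 to 0.186, so the numbers were not taken to pair samples. The replicate block gave 12, 5 and 28 genes lower in M, LPS and LPS+M compared to control, 9 in LPS+M compared to LPS and 5 in LPS+M compared to M, 1 higher in LPS compared to M and 0 in the interaction, the same counts as without it. The fit of only the compared groups and the methods' t-test were not run for the interaction.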
